A study of Mus musculus with 16 samples.

Results

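The 39 genes described here encode the enzymes and transporters that carry glucose to lactate (24 genes, the glycolysis list) and the oxygen-regulated transcription factors and target genes of the hypoxia response (15 genes, the HIF list). They were taken by name from the 27179 genes counted in each library, and the rule uses names only, not measured values. The libraries came from neurosphere cultures of mouse neural stem and progenitor cells, started from E14.5 cortex and ganglionic eminence. Null cells were Kat7lox/lox NesCreT/+ and intact cells were Kat7+/+ NesCreT/+, so both genotypes carried the Cre transgene driven by nestin regulatory sequences, and only the null cells carried floxed Kat7 alleles. Kat7 encodes HBO1, a histone acetyltransferase. The 4 groups, each with 4 libraries, were null and intact cells differentiating for 3 days on laminin in neuron culture medium after passage 3, and null and intact cells kept proliferating for 3 passages and 3 days. The design gives 4 foetuses for each genotype, and the labels do not state which proliferating and differentiating cultures came from 1 foetus.

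Glycolysis splits glucose into pyruvate in the cytosol. Pyruvate then enters mitochondria through the pyruvate dehydrogenase complex, or is reduced to lactate and exported. Hypoxia-inducible factors (HIF) are pairs of an oxygen-sensitive alpha subunit and a stable partner. In the presence of oxygen, prolyl hydroxylases mark the alpha subunit for destruction. In low oxygen the factor accumulates and binds DNA at sites with the core letters ACGTG or GCGTG, where it raises transcription of glucose transporters, glycolytic enzymes, lactate exporters, mitophagy receptors and growth factors. Neural progenitors are known for a high rate of glycolysis, and neurons for greater use of mitochondrial respiration.

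Library depth ranged from 16784286 to 47890535 counts. Kat7 itself had 0 to 4 counts per null library and 2643 to 3748 per intact library. Progenitor markers such as Nes, Sox2 and Vim made up a summed 7480 to 9530 TPM (transcript abundance per length, scaled to a fixed total per library) in null differentiating and 5440 to 7150 TPM in intact differentiating libraries, with 9640 to 10600 TPM in null proliferating and 10300 to 11600 TPM in intact proliferating libraries. All 10 progenitor markers were detected in every library. Markers of microglia and endothelium summed to at most 0.908 and 2.57 TPM in any library, and C1qa had no count in any of the 16. Mural and fibroblast markers summed to 40.1 to 145 TPM in null proliferating and 6.57 to 9.56 TPM in intact proliferating libraries. While differentiating, these markers summed to 9.03 to 17.9 TPM in null and 24.3 to 83 TPM in intact libraries. Their part in the differences below was not tested. In all, 3 libraries stood apart from their groups for many of the genes below, namely null proliferating replicate 4, intact proliferating replicate 1 and intact differentiating replicate 1. The astrocyte markers summed to 1840 TPM in null proliferating replicate 4 and to at most 1190 TPM in the other null proliferating libraries. Neuron markers summed to 4880 TPM in intact differentiating replicate 1 and to at most 2260 TPM in the other intact differentiating libraries. Counts of called genes are therefore also given without these 3 libraries, a setting chosen after their values were seen.

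Promoter sequence was available for 35 of the 39 genes (RefSeq, GRCm38.p6). In the 250 bases before the first listed start site, ACGTG was present on either strand in 54.3% of these promoters and in 16.6% of the 27025 promoters of all genes. GCGTG was present in 51.4% against 28.2%. At least 1 of both motifs was found in 77.1% against 38.6%. The palindrome CACGTG, which is read as ACGTG on both strands, occurred in 14.3% against 6.05%. HIF targets were partly defined by such sites in earlier work, so this share is a description of the list. The 4 promoters printed next belong to genes with different behaviour in these libraries: Slc16a3 and P4ha2 were lower in null cells, Ldha fell with differentiation in both genotypes, and Bnip3 rose with it. Capitals mark ACGTG or GCGTG and their reverse complements CACGT and CACGC, and each sequence ends at the base before the start site, on the strand of the gene.
Slc16a3 (chr11:120948817-120949066, plus strand): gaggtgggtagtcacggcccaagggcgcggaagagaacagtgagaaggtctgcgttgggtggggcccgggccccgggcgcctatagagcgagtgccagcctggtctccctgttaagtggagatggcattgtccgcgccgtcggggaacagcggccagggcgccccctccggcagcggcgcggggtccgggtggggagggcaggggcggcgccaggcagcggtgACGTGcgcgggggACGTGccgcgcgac
P4ha2 (chr11:54100674-54100923, plus strand): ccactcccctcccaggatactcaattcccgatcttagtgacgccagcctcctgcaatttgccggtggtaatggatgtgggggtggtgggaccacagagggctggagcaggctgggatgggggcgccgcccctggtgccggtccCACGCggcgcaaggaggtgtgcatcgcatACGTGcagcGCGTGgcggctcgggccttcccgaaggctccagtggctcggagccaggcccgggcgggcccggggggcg
Ldha (chr7:46845554-46845803, plus strand): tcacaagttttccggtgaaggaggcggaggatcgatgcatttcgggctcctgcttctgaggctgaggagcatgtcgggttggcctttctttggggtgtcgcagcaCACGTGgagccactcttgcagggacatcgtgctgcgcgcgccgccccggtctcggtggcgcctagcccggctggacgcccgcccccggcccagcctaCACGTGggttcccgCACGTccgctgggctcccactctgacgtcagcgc
Bnip3 (chr7:138909507-138909756, minus strand): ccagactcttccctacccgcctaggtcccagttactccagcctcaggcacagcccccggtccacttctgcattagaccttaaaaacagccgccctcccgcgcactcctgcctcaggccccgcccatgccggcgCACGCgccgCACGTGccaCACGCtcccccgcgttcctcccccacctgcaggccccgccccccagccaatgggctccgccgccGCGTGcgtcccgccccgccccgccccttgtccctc
The Slc16a3 matches lie 27 and 14 bases before the start, and the Ldha matches include a pair of palindromes. In proliferating cells, 4 of 11 promoters of genes called higher in null cells held ACGTG, as did 4 of 6 of genes called lower and 10 of 17 of genes not called. In differentiating cells the same counts were 3 of 12, 4 of 7 and 11 of 15. These counts take only the first listed start of each gene. Aldoa, Pkm, Hk1, Mxi1 and Vegfa had matches to either motif only before later listed starts. For Aldoa these included ACGTG. Slc2a3, Bnip3l and Ndrg1, lower in null cells in both states, and Epas1, higher in both, had no promoter sequence and are not counted. A match is a string of letters and not a measured binding site.

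Levels are given as CPM, library-scaled counts with the trimmed mean of M-values (TMM), when libraries are compared for 1 gene, and as TPM when genes are compared. Where 4 values are listed they are replicates 1 to 4 of the group. Fold changes are edgeR estimates from 1 fit of all 16 libraries and 15177 genes, and a gene was called at an adjusted p under 0.05 over all of these genes. Of the 39 genes, 38 passed the filter on low counts. Car9, a carbonic anhydrase and a classical HIF target, had 0 to 2 counts per library and was not tested.

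The glycolysis list was expressed at a higher summed level in null cells in both states. Its 24 genes summed to 2700 to 3090 TPM in null differentiating libraries, against 2260 to 2400 TPM in intact differentiating libraries. They summed to 4980 to 6330 TPM in null proliferating libraries, against 3810 to 4170 TPM in intact proliferating libraries. The groups did not overlap in either state. A sum weighs abundant genes most, and not every gene of the list was higher in null cells. While differentiating, Aldoa averaged 451 TPM in null and 299 TPM in intact libraries, but Pgam1 averaged 181 and 194 TPM. With library size as the only scaling, 2234 of all genes were called higher and 3847 lower in proliferating cells, where the trimmed mean gave 2879 and 2985, and 2677 higher and 4123 lower in differentiating cells, where it gave 3691 and 3345. The summed levels are shares of the polyadenylated RNA of a mixed culture, in which more cells of 1 type and more RNA per cell cannot be told apart. In proliferating cells, 11 of the 24 genes were called higher in null cells and 3 lower by edgeR, whereas 38.6% of all genes tested were called in this comparison, 19% higher and 19.7% lower. The median log2 fold change was 0.39 over the list and -0.01 over all genes. In differentiating cells 10 of 24 were higher and 6 lower, against a background of 46.4% called, 24.3% higher and 22% lower, with a list median of 0.13 and a median of 0.04 over all genes. Without the 3 libraries named above, the counts were 13 higher and 4 lower in proliferating cells, and 11 higher and 8 lower in differentiating cells. The background was larger in that setting too, at 24.2% higher and 25% lower over all genes in proliferating cells, and 30.4% higher and 25.6% lower in differentiating cells. In both states 10 genes were higher, and 2 were lower in both, namely the transporters Slc2a3 and Slc16a3. Over all genes, 9.79% were higher in both and 9.86% lower in both. In proliferating cells, all null libraries lay above all intact ones for 13 of the 24 genes and below for 3, against 19.2% and 19.7% of all genes, or 39% without overlap. In differentiating cells this held for 8 above and 5 below, against 24.9% and 20.4%, or 45.3% without overlap.

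**Figure D1:**
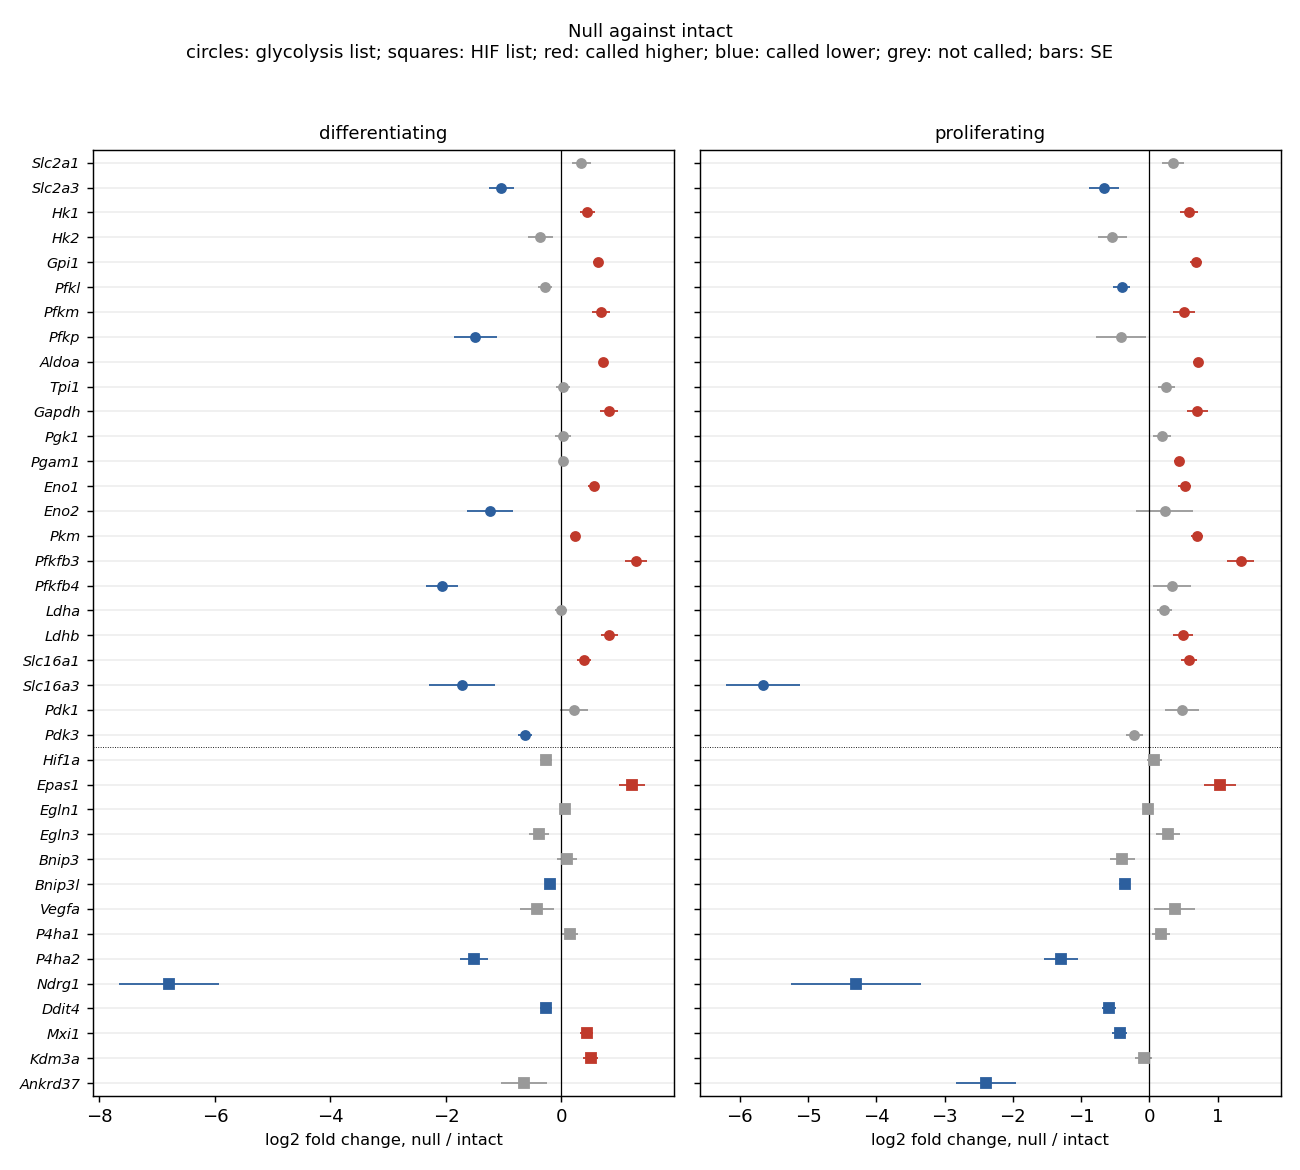
Log2 fold change of null over intact for the 38 tested genes, in differentiating (left) and proliferating (right) cells; points are edgeR estimates, bars are SE, and a dotted line divides the glycolysis list (circles) from the HIF list (squares). Most glycolytic enzymes lie right of 0 in both panels, while Slc16a3 at -5.66 in proliferating cells and Ndrg1 at -6.79 in differentiating cells lie farthest left; the 2 panels have different horizontal scales.

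The glucose transporters differed from each other. Slc2a1, which encodes the broadly expressed glucose transporter GLUT1, averaged 50.6 ± 7.73 CPM (null) and 39.9 ± 2.94 CPM (intact) in proliferating cells (SD, n = 4 each), and was not called in either state. Slc2a3, which encodes the high-affinity neuronal transporter GLUT3, was lower in null cells. It had 10.4, 11.1, 11.8 and 10.7 CPM in null differentiating libraries, against 36.6, 19.5, 20.3 and 14.3 CPM in intact differentiating libraries (log2 fold change -1.04 ± 0.22 (SE), edgeR adjusted p = 0.00112). In proliferating cells it had 9.91, 9.804, 11.7 and 11.4 CPM in null libraries, against 21.2, 16.7, 15.5 and 14.49 CPM in intact libraries (log2 fold change -0.66 ± 0.22 (SE), edgeR adjusted p = 0.0258). All null values lay below all intact values in both states, and intact differentiating replicate 1 was the highest. The proliferating call was lost without null proliferating replicate 1, without null proliferating replicate 2, and without intact proliferating replicate 1, where the log2 fold change was -0.54 and the edgeR adjusted p was 0.0723. Over all alternatives tried for it, 22 of 26 kept the call, with adjusted p from 0.00115 to 0.686. Neuron markers, of which 5 of 10 were lower in null differentiating cells and 1 higher, summed to 1240 to 1520 TPM in those libraries and to 1150 to 4880 TPM in intact differentiating libraries. Their part in the Slc2a3 difference was not tested.

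Of the 7 genes of the hexose steps, from hexokinase to aldolase, 4 were higher in null cells in both states: Hk1, Gpi1, Pfkm and Aldoa. Aldoa, the aldolase that splits the hexose, lies on chromosome 7 and had 933, 873, 855 and 919.9 CPM in null proliferating libraries, against 538, 543, 537 and 559 CPM in intact proliferating libraries (log2 fold change 0.72 ± 0.08 (SE), edgeR adjusted p = 5.3e-06). In differentiating cells it had 316, 341, 369 and 421 CPM in null libraries, against 209.5, 228, 217 and 226 CPM in intact libraries (log2 fold change 0.72 ± 0.08 (SE), edgeR adjusted p = 3.91e-06). The null and intact values were well apart in both states, and the fold was 1.64 in each to 3 significant digits. Gpi1, the isomerase that follows hexokinase, had 453, 417, 396 and 516 CPM in null proliferating libraries, against 258, 275, 282 and 295 CPM in intact proliferating libraries (log2 fold change 0.68 ± 0.09 (SE), edgeR adjusted p = 2.76e-05). It had 189, 207, 217 and 242 CPM in null differentiating libraries, against 138, 143, 140.4 and 132 CPM in intact differentiating libraries (log2 fold change 0.63 ± 0.09 (SE), edgeR adjusted p = 3.77e-05). Again no null library overlapped an intact one.

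Hk1, the constitutive hexokinase of brain, had 138, 129, 116 and 159 CPM in null proliferating libraries, against 105, 87.6, 89.4 and 79.5 CPM in intact proliferating libraries (log2 fold change 0.59 ± 0.13 (SE), edgeR adjusted p = 0.00295). Its change in differentiating cells was smaller (log2 fold change 0.45 ± 0.13 (SE), edgeR adjusted p = 0.0118), and there intact replicate 1, at 203 CPM, reached into the null range of 189 to 242 CPM. Hk2, the inducible hexokinase and a HIF target, averaged 26.1 ± 5.69 CPM (null) and 37.9 ± 5.29 CPM (intact) in proliferating cells (SD, n = 4 each) and was not called in either state (-0.54 ± 0.21 log2 in proliferating cells, edgeR adjusted p = 0.0565). It was called lower in null proliferating cells in 10 of 26 alternatives, with adjusted p from 0.0139 to 1. Per length, Hk2 made up 9.29% to 16.6% of the summed TPM of Hk1 and Hk2 in null proliferating libraries and 19% to 29.9% in intact proliferating libraries, with no overlap.

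The isoforms of phosphofructokinase, the committed step of glycolysis, did not move together. Pfkm, the muscle isoform, had 183, 207, 187 and 185 CPM in null differentiating libraries, against 151, 113, 105 and 107 CPM in intact differentiating libraries (log2 fold change 0.68 ± 0.16 (SE), edgeR adjusted p = 0.00242). In proliferating cells it was also called higher (log2 fold change 0.51 ± 0.16 (SE), edgeR adjusted p = 0.0184), with null replicate 4 at 197 CPM and the other null libraries at 116 to 119.7 CPM, and intact libraries at 91.4 to 106 CPM. Without that library the log2 fold change was 0.29 and the call was lost with an adjusted p of 0.0502, within a range of 0.000207 to 1 over the 26 alternatives. Pfkl, the liver isoform, was lower in null proliferating cells (42.1 ± 6.58 CPM in null against 55.8 ± 11.97 CPM in intact libraries, SD, n = 4 each, log2 fold change -0.41 ± 0.13 (SE), edgeR adjusted p = 0.0193) and was not called in differentiating cells. The Pfkl call was lost without intact proliferating replicate 1 (log2 fold change -0.25, adjusted p 0.0574), without null proliferating replicate 1 and without null proliferating replicate 3, in an adjusted p range of 0.000569 to 1. Pfkp, the platelet isoform, which is also abundant in brain, had 7.46, 7.97, 13.4 and 12.9 CPM in null differentiating libraries, against 57.8, 19.4, 29.6 and 10.7 CPM in intact differentiating libraries (log2 fold change -1.49 ± 0.37 (SE), edgeR adjusted p = 0.00388). The intact values spread widely, and intact replicate 4 lay inside the null range. Without intact differentiating replicate 1 the Pfkp difference was -0.93 on the log2 scale and still called. The annotation gives Pitrm1 748 bases in common with Pfkp, and Pitrm1 drew 55538 counts against 9808 for Pfkp. Pitrm1 was higher in null differentiating cells, by 0.61 ± 0.08 log2, so the level of Pfkp is uncertain. In TPM, Pfkm exceeded Pfkl in every library.

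The triose steps, from triosephosphate isomerase to pyruvate kinase, held 4 genes that were higher in null proliferating cells and none that was lower. Pkm, pyruvate kinase, which makes the pyruvate, had 1532, 1550.0, 1514 and 1965 CPM in null proliferating libraries, against 915, 1031, 1012 and 1083 CPM in intact proliferating libraries (log2 fold change 0.70 ± 0.09 (SE), edgeR adjusted p = 2.87e-05). While differentiating, it had 659, 691, 624 and 694 CPM in null libraries, against 517, 585, 566 and 598 CPM in intact libraries (log2 fold change 0.24 ± 0.09 (SE), edgeR adjusted p = 0.0412). The values did not overlap in either state, but the differentiating call held in only 10 of 26 alternatives, with adjusted p from 0.00461 to 1, and was lost in 9 of the 18 settings that left libraries out. Pgam1, phosphoglycerate mutase, had 328, 309.9, 313 and 369.5 CPM in null proliferating libraries, against 238, 248, 243 and 251 CPM in intact proliferating libraries (log2 fold change 0.43 ± 0.07 (SE), edgeR adjusted p = 0.000145). In differentiating cells the Pgam1 values were 143, 154, 141 and 144 CPM in null libraries, against 134, 156, 136 and 149 CPM in intact libraries, and they overlapped. Tpi1 and Pgk1, triosephosphate isomerase and the first ATP-forming kinase of the pathway, were called in neither state, with log2 fold changes of 0.25 ± 0.13 and 0.19 ± 0.13 in proliferating cells.

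Gapdh and Eno1 were also higher in null cells in both states, with a limit set by near-identical copies. Gapdh, the dehydrogenase of the pathway, had 69.5, 49.7, 55.6 and 82.8 CPM in null proliferating libraries, against 37.9, 36.5, 33.5 and 50.2 CPM in intact proliferating libraries (log2 fold change 0.71 ± 0.15 (SE), edgeR adjusted p = 0.00196). Differentiating cultures had 32.1, 33.5, 32.5 and 33.7 CPM in null libraries, against 20.01, 19.6, 19.7 and 15.2 CPM in intact libraries (log2 fold change 0.82 ± 0.15 (SE), edgeR adjusted p = 0.000478). The differentiating values did not overlap, while intact proliferating replicate 4, at 50.2 CPM, lay just above null proliferating replicate 2. In GENCODE release 21 for the mouse, 77 other gene models share at least 300 bases with Gapdh at 95% identity or more, and 3 of them had counts of their own in these files, 78819 in all against 17295 for Gapdh. Its level is therefore uncertain. Summed with these 3 copies, it was still higher in null cells, by 0.63 ± 0.07 log2 in proliferating and 0.66 ± 0.07 log2 in differentiating cells (edgeR adjusted p = 1.03e-05 and 4.92e-06). Eno1, the ubiquitous enolase, was higher by 0.52 ± 0.10 and 0.55 ± 0.10 log2 (edgeR adjusted p = 0.00067 and 0.000281), and its copy Eno1b drew 134067 counts over all libraries, more than the 82582 of Eno1. The sum of both was higher by 0.51 ± 0.08 log2 in proliferating and 0.46 ± 0.08 log2 in differentiating null cells.

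Eno2, the enolase of neurons, went the other way in differentiating cells. It had 7.08, 5.33, 6.32 and 6.49 CPM in null differentiating libraries, against 29.6, 9.903, 13.9 and 5.81 CPM in intact differentiating libraries (log2 fold change -1.23 ± 0.40 (SE), edgeR adjusted p = 0.0204). Intact replicate 4 lay inside the null range and the other intact libraries above it, and without intact replicate 1 the difference was -0.65 on the log2 scale and the call was lost (edgeR adjusted p 0.113, in a range of 0.00313 to 0.114 over 26 alternatives). It was also lost without null differentiating replicate 2 (-1.16 log2, adjusted p 0.0537). Intact differentiating replicate 1 is the library with the most neuron marker RNA, and the part of neurons in the difference was not tested. In proliferating cells Eno2 averaged 4.43 ± 1.22 CPM in null and 3.81 ± 1.77 CPM in intact cells (SD, n = 4 each) and was not called.

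The paired regulators of phosphofructokinase moved in opposite directions in differentiating cells. Pfkfb3 and Pfkfb4 encode bifunctional enzymes that make and remove the fructose bisphosphate activator of phosphofructokinase, and both are HIF targets. Pfkfb3, the isoform with the strongest kinase activity, was the enzyme gene with the largest rise in null cells. It had 97.8, 88.2, 85.1 and 71.8 CPM in null proliferating libraries, against 43.5, 36, 31.6 and 24.5 CPM in intact proliferating libraries (log2 fold change 1.34 ± 0.20 (SE), edgeR adjusted p = 9.71e-05). Its differentiating values were 134, 142, 181 and 156 CPM in null libraries, against 90.6, 54.2, 56.1 and 48.9 CPM in intact libraries (log2 fold change 1.29 ± 0.19 (SE), edgeR adjusted p = 7.68e-05). Every null library exceeded every intact one, by 2.53-fold and 2.45-fold on the fitted scale. Pfkfb4 had 2.83, 3.49, 3.41 and 3.04 CPM in null differentiating libraries, against 19.8, 10.9, 13.2 and 9.86 CPM in intact differentiating libraries (log2 fold change -2.07 ± 0.28 (SE), edgeR adjusted p = 2.88e-05). Every intact value lay well above every null value. In proliferating cells Pfkfb4 had 4.67, 6.35, 5.16 and 2.52 CPM in null libraries, against 5.18, 3.08, 3.32 and 3.196 CPM in intact libraries, which overlapped and were not called.

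**Figure D2:**
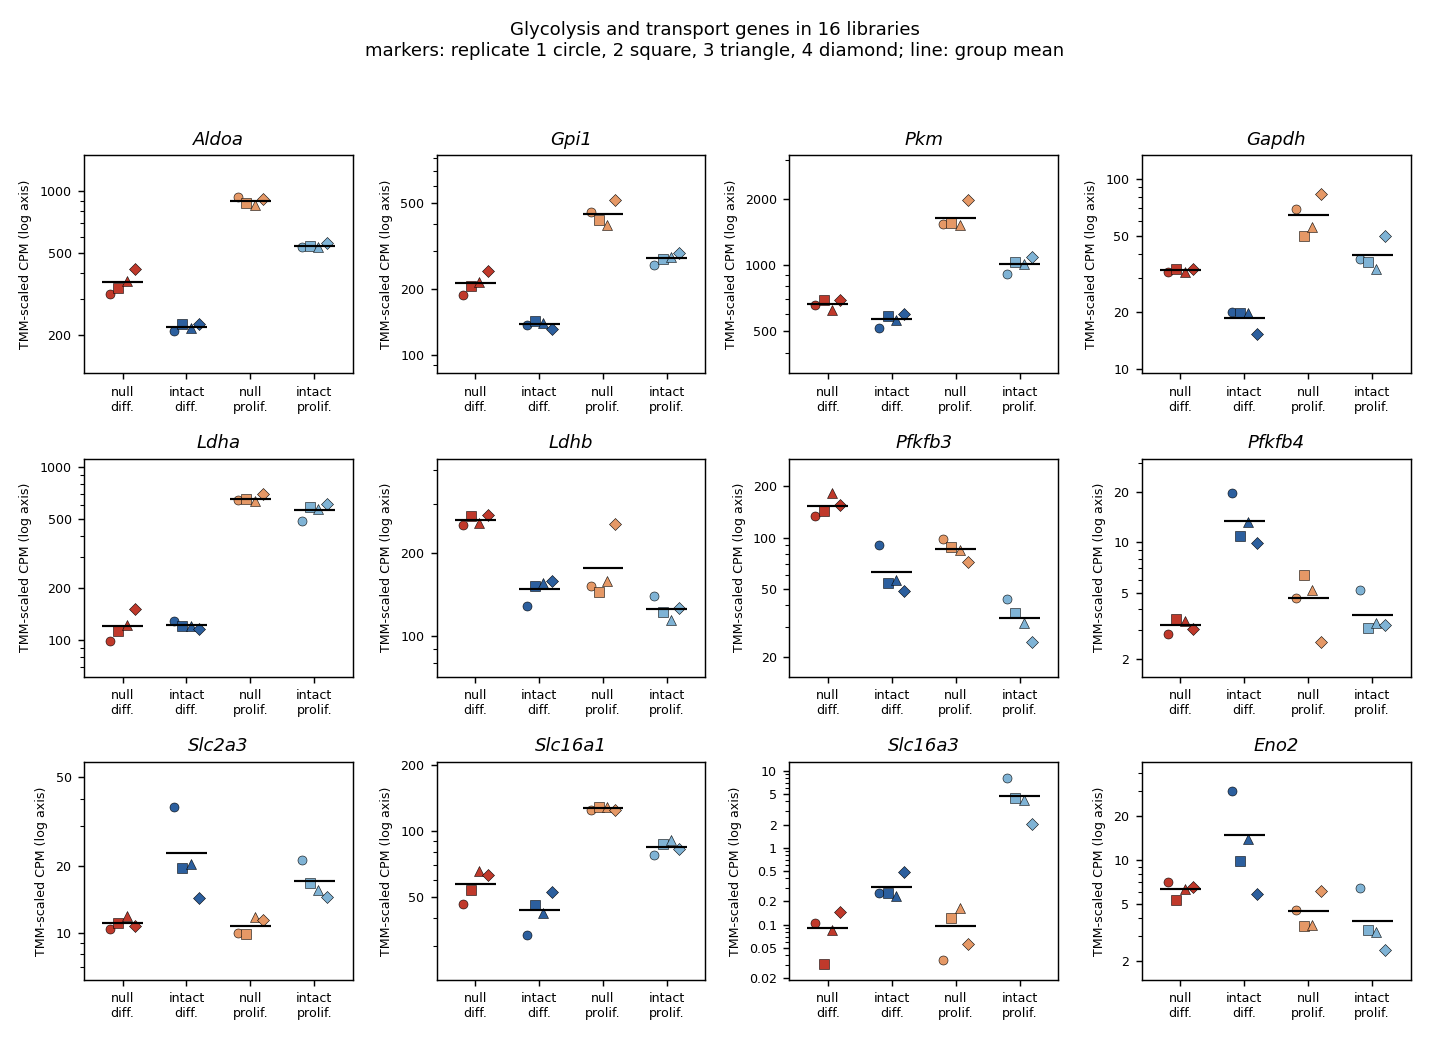
CPM of 12 glycolysis and transport genes in each of the 16 libraries, on log axes that differ between panels; groups run from null and intact differentiating to null and intact proliferating, symbols mark replicates and lines the group means. Aldoa, Gpi1, Pkm and Pfkfb3 are higher in null than in intact libraries in both states, Ldha overlaps between genotypes in differentiating cells, and Slc16a3 is above 2 CPM only in the intact proliferating libraries.

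At the lactate end, both dehydrogenases and both exporters were measured. Ldha, the subunit that favours lactate formation, was not called between genotypes in either state (0.22 ± 0.11 log2 in proliferating cells with edgeR adjusted p = 0.107, and -0.01 ± 0.11 log2 in differentiating cells with edgeR adjusted p = 0.942). Ldhb, the subunit that favours pyruvate formation, was higher in null cells. It had 253, 273, 257 and 274 CPM in null differentiating libraries, against 129, 153, 156 and 158 CPM in intact differentiating libraries (log2 fold change 0.83 ± 0.14 (SE), edgeR adjusted p = 0.000253). In proliferating cells it was higher by 0.50 ± 0.14 log2 (edgeR adjusted p = 0.0124), with null replicate 4 at 254 CPM and the other null libraries at 145 to 159 CPM. Without that library the Ldhb difference was 0.28 on the log2 scale and still called (adjusted p 0.0154, in a range of 0.000258 to 1 over 26 alternatives). The call was kept in 25 of these, and leaving out any single library gave an edgeR adjusted p of at most 0.0411. Ldha accounted for 20.7% to 26.8% of the summed TPM of Ldha and Ldhb in null differentiating libraries, against 32.9% to 40.1% in intact differentiating libraries, with no overlap. In proliferating cells the shares were 64.7% to 75.1% in null and 69.9% to 76.8% in intact libraries, and they overlapped.

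Slc16a1, which encodes the widespread lactate carrier MCT1, was higher in null proliferating cells (127 ± 2.22 CPM in null against 84.8 ± 5.6 CPM in intact libraries, SD, n = 4 each, log2 fold change 0.58 ± 0.12 (SE), edgeR adjusted p = 0.00167), with no overlap. In differentiating cells it was higher by 0.39 ± 0.12 log2 (edgeR adjusted p = 0.0169) with overlap. That call was lost without null differentiating replicate 3 (adjusted p 0.0596) and without null differentiating replicate 4 (0.0509), and 21 of 26 alternatives kept it, with adjusted p from 0.00362 to 1. Slc16a3, which encodes MCT4, the lactate exporter of strongly glycolytic cells and a HIF target, was near 0 in null cells. Null proliferating libraries had 1, 2, 4 and 2 counts and intact proliferating libraries 169, 81, 90 and 45 counts. In CPM these were 0.0349, 0.123, 0.166 and 0.0567 in null libraries, against 8.19, 4.38, 4.14 and 2.03 in intact libraries (log2 fold change -5.66 ± 0.54 (SE), edgeR adjusted p = 2.18e-06). In differentiating cells there were 3, 1, 4 and 5 counts in null and 9, 7, 6 and 16 in intact libraries, or 0.105, 0.0306, 0.0852 and 0.145 CPM in null libraries, against 0.258, 0.261, 0.233 and 0.479 CPM in intact libraries (log2 fold change -1.72 ± 0.57 (SE), edgeR adjusted p = 0.0189). The groups did not overlap in either state, but so few counts leave the size of the differentiating difference uncertain. That call was lost without intact differentiating replicate 4 (log2 fold change -1.41, adjusted p 0.0683) and without null differentiating replicate 2 (-1.45, 0.0534), in a range of 0.00916 to 0.0784 over 25 alternatives.

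Pdk1 and Pdk3 encode kinases that switch off pyruvate dehydrogenase. Pdk3 had 10.8, 10.5, 11.3 and 12.6 CPM in null differentiating libraries, against 13.2, 18.4, 18.1 and 20.2 CPM in intact differentiating libraries (log2 fold change -0.63 ± 0.12 (SE), edgeR adjusted p = 0.000794), and the groups did not overlap. Pdk1, a HIF target, averaged 22.3 ± 4.899 CPM (null) and 16.1 ± 7.82 CPM (intact) in proliferating cells (SD, n = 4 each) and was not called. Intact proliferating replicate 1, at 27.8 CPM, stood above the other intact libraries at 11.03 to 13.2 CPM, and without it Pdk1 was called higher in null cells (log2 fold change 0.87, adjusted p 0.0013, in a range of 8.99e-05 to 1 over 26 alternatives). Per length, Pdk3 exceeded Pdk1 in all 8 proliferating libraries.

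The HIF list is described next. In proliferating cells, 6 of its 14 tested genes were lower in null cells and 1 was higher, beside the background of 19.7% lower and 19% higher given above. Its median log2 fold change was -0.22. In differentiating cells 4 were lower and 3 higher, with a median of -0.23, and these shares lie near the background of 22% lower and 24.3% higher. Without the 3 libraries that stood apart, these counts were 7 lower and 3 higher in proliferating cells, and 6 lower and 3 higher in differentiating cells, with backgrounds in that setting of 25% lower and 24.2% higher in proliferating cells, and 25.6% lower and 30.4% higher in differentiating cells. Bnip3l, P4ha2, Ndrg1 and Ddit4 were lower in both states and Epas1 was higher in both, beside 9.86% and 9.79% of all genes. The null libraries lay all above the intact ones for 1 gene and all below for 6 in proliferating cells. Over all genes this held for 19.2% and 19.7%. In differentiating cells it held for 3 above and 4 below, against 24.9% and 20.4% of all genes. The 15 genes summed to 727 to 802 TPM in null differentiating libraries, against 880 to 917 TPM in intact differentiating libraries. They summed to 575 to 606 TPM in null proliferating libraries, against 639 to 839 TPM in intact proliferating libraries.

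Of the transcription factors, Hif1a encodes the principal alpha subunit and Epas1 the alternative one, which in brain is known from glia and vessels. Hif1a had 262, 254, 278 and 263 CPM in null differentiating libraries, against 242, 338, 309 and 380.5 CPM in intact differentiating libraries (log2 fold change -0.26 ± 0.10 (SE), edgeR adjusted p = 0.0504). While proliferating, it had 298, 287, 299 and 252 CPM in null libraries, against 254, 271, 280.1 and 272 CPM in intact libraries (log2 fold change 0.08 ± 0.10 (SE), edgeR adjusted p = 0.598). Both pairs of groups overlapped, and neither was called. Without intact differentiating replicate 1, the lowest intact library, Hif1a was lower in null differentiating cells (log2 fold change -0.38, adjusted p 0.00102, in a range of 0.000145 to 1 over 26 alternatives, 8 of which called it). Hif1a is controlled mostly through its protein, which was not measured here.

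Epas1 had 51.96, 56.7, 70.5 and 61.1 CPM in null differentiating libraries, against 23.3, 28.1, 25.4 and 26.2 CPM in intact differentiating libraries (log2 fold change 1.22 ± 0.23 (SE), edgeR adjusted p = 0.000482). Proliferating cultures had 13.9, 16.1, 15.2 and 31.98 CPM in null libraries, against 12.9, 8.28, 9.07 and 7.52 CPM in intact libraries (log2 fold change 1.04 ± 0.24 (SE), edgeR adjusted p = 0.00294). No values overlapped in either state. Without null proliferating replicate 4 the proliferating difference was 0.68 on the log2 scale and still called. Astrocyte markers, of which 7 of 10 were higher in null differentiating cells and none lower, summed to 2810 to 4210 TPM in those libraries and to 1030 to 1550 TPM in intact differentiating libraries. In proliferating cells 4 of 10 were higher in null cells and 1 lower, with sums of 1140 to 1840 TPM in null and 664 to 1130 TPM in intact libraries, and Gjb6 had no count in 7 of the 8. Their part in the Epas1 difference was not tested. Hif1a made up 81.6% to 85% of the summed TPM of Hif1a and Epas1 in null differentiating libraries, against 92.1% to 94.2% in intact differentiating libraries.

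The prolyl hydroxylases that mark HIF alpha subunits, Egln1 and Egln3, were not called between genotypes. Egln1 averaged 114 ± 4.22 CPM (null) and 109 ± 3.04 CPM (intact) in differentiating cells, and 148 ± 5.07 CPM (null) and 150.1 ± 13.9 CPM (intact) in proliferating cells (SD, n = 4 each). Its SE was the smallest of the 38 tested genes in both states, at 0.06, on log2 differences of 0.06 in differentiating and -0.02 in proliferating cells. Egln3 averaged 16.5 ± 1.203 CPM (null) and 21.7 ± 5.04 CPM (intact) in differentiating cells, with overlap.

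The collagen prolyl hydroxylases P4ha1 and P4ha2 gave different results. P4ha2 had 0.837, 1.07, 1.36 and 1.42 CPM in null differentiating libraries, against 3.46, 3.42, 3.38 and 3.27 CPM in intact differentiating libraries (log2 fold change -1.52 ± 0.24 (SE), edgeR adjusted p = 0.000111). Its proliferating values were 1.01, 0.802, 0.666 and 0.822 CPM in null libraries, against 3.004, 1.84, 1.98 and 1.35 CPM in intact libraries (log2 fold change -1.30 ± 0.25 (SE), edgeR adjusted p = 0.000873). The fitted level in null cells was 2.86-fold lower in differentiating and 2.46-fold lower in proliferating cells, with no overlap. P4ha1, which was far more abundant, was not called in either state (0.17 ± 0.13 log2 in proliferating cells).

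Ndrg1, a stress-induced gene that in brain is best known from oligodendrocytes, showed the largest difference of all members. It had 0.384, 0.153, 0.277 and 0.754 CPM in null differentiating libraries, against 124, 23.6, 20.4 and 5.78 CPM in intact differentiating libraries (log2 fold change -6.79 ± 0.86 (SE), edgeR adjusted p = 1.86e-05). The proliferating state gave 0.174, 0.308, 0.166 and 0.198 CPM in null libraries, against 5.96, 4.55, 3.22 and 2.61 CPM in intact libraries (log2 fold change -4.30 ± 0.95 (SE), edgeR adjusted p = 0.00227). Null libraries held 4 to 26 counts of it, and the intact differentiating libraries differed widely among themselves. Without intact differentiating replicate 1 the differentiating difference was -5.40 on the log2 scale and still called. Oligodendrocyte lineage markers, of which 7 of 10 were lower in null cells and none higher in each state, summed to 1680 to 2070 TPM in null differentiating and 2770 to 5530 TPM in intact differentiating libraries. The sums were 1520 to 2040 TPM in null proliferating and 2610 to 2860 TPM in intact proliferating libraries, and Mog had no count in 10 of the 16. Their part in the Ndrg1 difference was not tested.

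Ddit4, which encodes the mTORC1 inhibitor REDD1, had 138, 97.3, 108 and 112 CPM in null proliferating libraries, against 193, 160.5, 158 and 173 CPM in intact proliferating libraries (log2 fold change -0.59 ± 0.11 (SE), edgeR adjusted p = 0.00052), with no overlap. In differentiating cells it was lower in null cells (log2 fold change -0.27 ± 0.11 (SE), edgeR adjusted p = 0.045), a call kept in 13 of 26 alternatives (adjusted p 0.00876 to 1). The mitophagy receptors behaved alike in part. Bnip3l was lower in null proliferating cells (58.4 ± 5.29 CPM in null against 75.1 ± 7.68 CPM in intact libraries, SD, n = 4 each, log2 fold change -0.36 ± 0.08 (SE), edgeR adjusted p = 0.0018), and in null differentiating cells (log2 fold change -0.20 ± 0.08 (SE), edgeR adjusted p = 0.0422), the second call also kept in 13 of 26 alternatives (adjusted p 0.00442 to 1). Bnip3l-ps, a near-identical copy of Bnip3l, was also lower in null proliferating cells (log2 fold change -0.32 ± 0.07 (SE), edgeR adjusted p = 0.0032). In differentiating cells the copy was not called (-0.04 ± 0.07 log2, edgeR adjusted p = 0.653). Bnip3 was not called in either state. Vegfa, the angiogenic growth factor, was not called either, with 112 ± 18.8 CPM (null) and 87.1 ± 34.4 CPM (intact) in proliferating cells (SD, n = 4 each) and intact replicate 1, at 138 CPM, far above the other intact libraries.

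Ankrd37, a small ankyrin-repeat gene known for its induction in low oxygen, had 0.244, 0.247, 0.624 and 0.425 CPM in null proliferating libraries, against 3.68, 1.19, 2.395 and 0.990 CPM in intact proliferating libraries (log2 fold change -2.39 ± 0.44 (SE), edgeR adjusted p = 0.000577). The differentiating state gave 0.802, 1.59, 0.831 and 1.04 CPM in null libraries, against 1.29, 1.97, 1.71 and 1.74 CPM in intact libraries, with overlap and no call. Mxi1, which encodes an antagonist of MYC, was the only member called in opposite directions in the 2 states, as were 2.85% of all genes. It had 48.2, 46.4, 50.5 and 50.3 CPM in null proliferating libraries, against 80.2, 63.4, 59.8 and 61.04 CPM in intact proliferating libraries (log2 fold change -0.44 ± 0.11 (SE), edgeR adjusted p = 0.00729). On laminin it had 158, 147, 172 and 167 CPM in null libraries, against 90.6, 125, 125 and 134 CPM in intact libraries (log2 fold change 0.44 ± 0.11 (SE), edgeR adjusted p = 0.00488). The null libraries were all below the intact ones in proliferating cells and all above them in differentiating cells. Kdm3a, a histone lysine demethylase induced by HIF, had 228, 223, 229 and 239 CPM in null differentiating libraries, against 116, 177, 165 and 189.5 CPM in intact differentiating libraries (log2 fold change 0.51 ± 0.13 (SE), edgeR adjusted p = 0.00415). During proliferation it had 124, 129, 123 and 101 CPM in null libraries, against 149, 119.6, 117 and 119.6 CPM in intact libraries, and the groups overlapped.

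**Figure D3:**
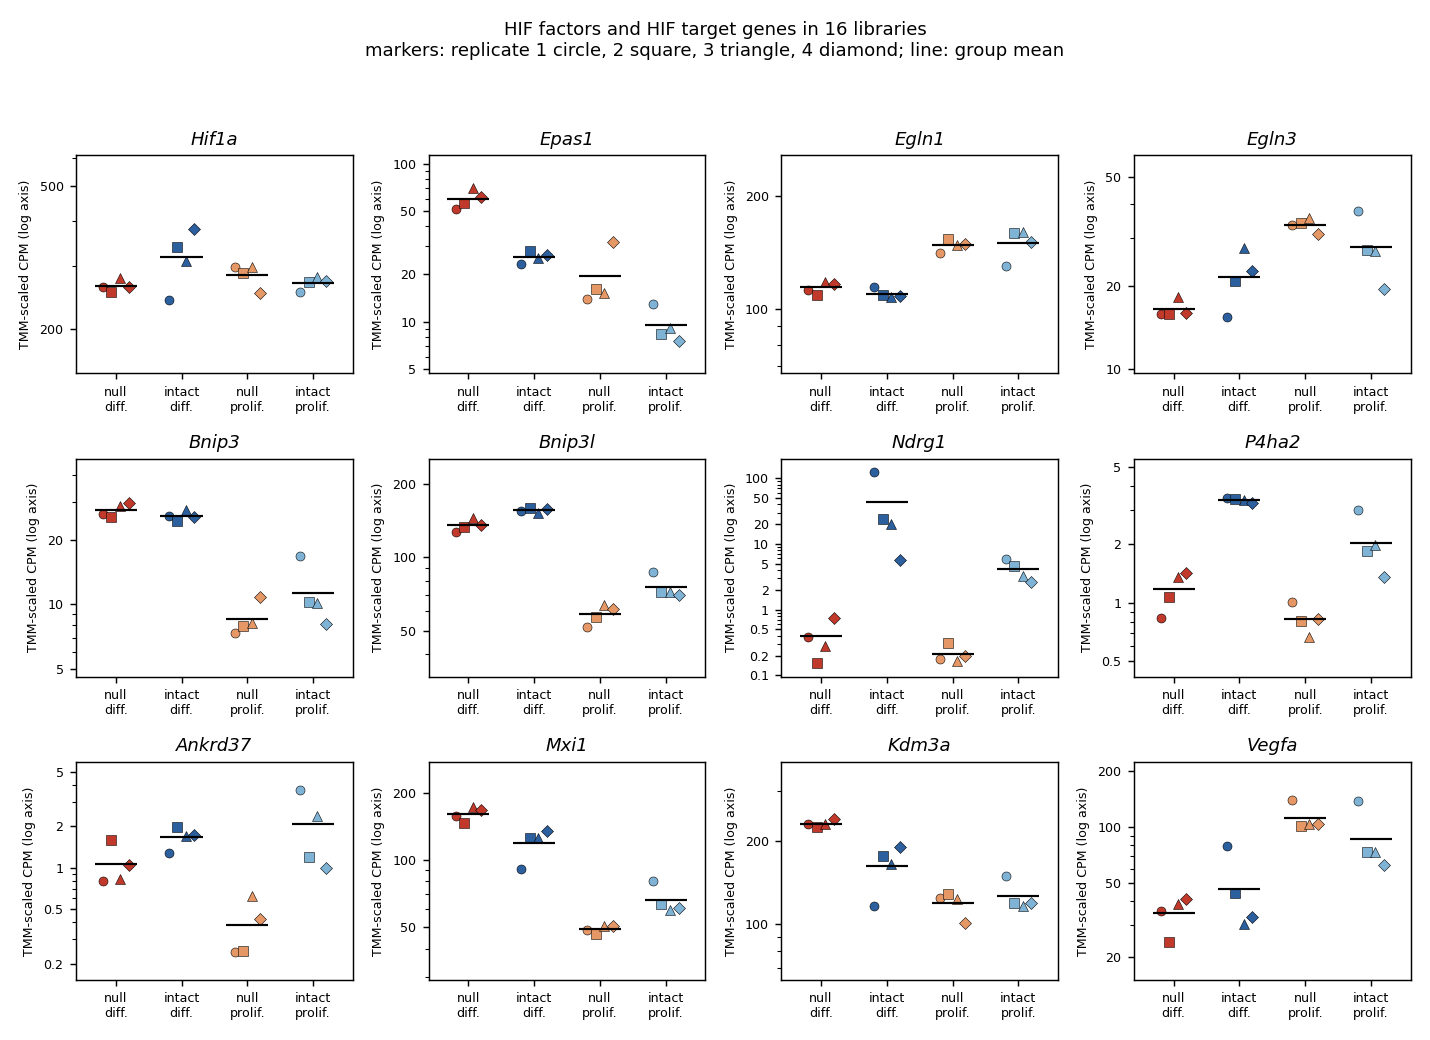
CPM of 12 HIF factors and targets in each of the 16 libraries, on log axes that differ between panels; groups, symbols and lines are as in the plot of glycolysis genes by library. Epas1 is higher and Ndrg1 and P4ha2 are lower in null libraries in both states, Egln1 hardly moves between genotypes, and Mxi1 is lower in null proliferating and higher in null differentiating libraries.

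Most of the glycolytic enzymes were lower in differentiating than in proliferating cells of both genotypes. Of the 24 genes of the glycolysis list, 13 fell and 6 rose in null cells, and 12 fell and 6 rose in intact cells. The backgrounds were 69% of all genes called in null cells, 34.6% higher and 34.4% lower, and 72% in intact cells, 36.7% higher and 35.3% lower. The list medians were -0.79 log2 in null and -0.51 log2 in intact cells, against 0.02 over all genes in each. Both genotype comparisons of the previous paragraphs and these responses share the same libraries. Differentiating cells were on laminin in neuron culture medium, and the part of these conditions in the responses was not tested. Ldha fell most among the abundant enzymes, to 121 ± 21.96 CPM in null differentiating cells against 656 ± 28.4 CPM in null proliferating cells (log2 fold change -2.44 ± 0.11 (SE), edgeR adjusted p = 2.17e-10), and to 122 ± 5.34 CPM in intact differentiating cells against 562 ± 53.8 CPM in the proliferating intact cells (log2 fold change -2.21 ± 0.11 (SE), edgeR adjusted p = 2.42e-10). No differentiating library overlapped a proliferating one for Ldha. Over the list, all null differentiating libraries lay above all null proliferating ones for 4 genes and below for 13, against 33.8% and 33.2% of all genes, or 67% without overlap. In intact cells the counts were 3 and 13, against 31.1% and 31.8%, or 62.8% without overlap.

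Eno1, Tpi1, Pgk1, Aldoa, Gpi1, Gapdh, Pgam1, Pkm, Hk2 and Slc16a1 fell in both genotypes as well, with log2 fold changes of -1.75 for Tpi1 and -0.97 for Gapdh in null cells, and of -1.81 for Eno1 and -0.77 for Pgam1 in intact cells. Pgk1 averaged 44.5 ± 1.75 CPM in null differentiating and 125 ± 23.6 CPM in null proliferating cells, and 43.7 ± 8.21 CPM in intact differentiating and 109 ± 11.6 CPM in intact proliferating cells (SD, n = 4 each). A smaller group rose. Hk1 rose by 0.66 ± 0.13 log2 in null and 0.80 ± 0.13 log2 in intact cells, Pfkfb3 by 0.84 ± 0.19 and 0.88 ± 0.20, and Pdk1 by 0.79 ± 0.25 and 1.04 ± 0.25 (edgeR adjusted p from 8.23e-05 to 0.00975). Pfkl rose by 0.42 ± 0.13 and 0.30 ± 0.13 log2, and the second of these calls was lost in 12 settings that left libraries out, and its adjusted p ran from 1.69e-05 to 1 over 27 alternatives. Ldhb rose in null cells (0.57 ± 0.14 log2, edgeR adjusted p = 0.00215) and was not called in intact cells (0.24 ± 0.14 log2), and the test of the difference between these responses gave an adjusted p of 0.252.

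Isoform shares also differed between the states. Ldha made up 20.7% to 26.8% of the lactate dehydrogenase TPM in null differentiating libraries against 64.7% to 75.1% in null proliferating libraries, and 32.9% to 40.1% in intact differentiating against 69.9% to 76.8% in intact proliferating libraries. Hk2 made up 3.01% to 4.27% of the hexokinase TPM in null differentiating against 9.29% to 16.6% in null proliferating libraries, and 3.36% to 8.61% in intact differentiating against 19% to 29.9% in intact proliferating libraries. Eno2 made up 3.3% to 4.37% of the enolase TPM in null differentiating against 0.714% to 0.93% in null proliferating libraries, and 5.53% to 21.6% in intact differentiating against 0.564% to 1.91% in intact proliferating libraries. In all 3 enzymes the ranges of the 2 states were apart within each genotype. These shares take Eno1 without its copy Eno1b, so the enolase share is an upper figure.

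**Figure D4:**
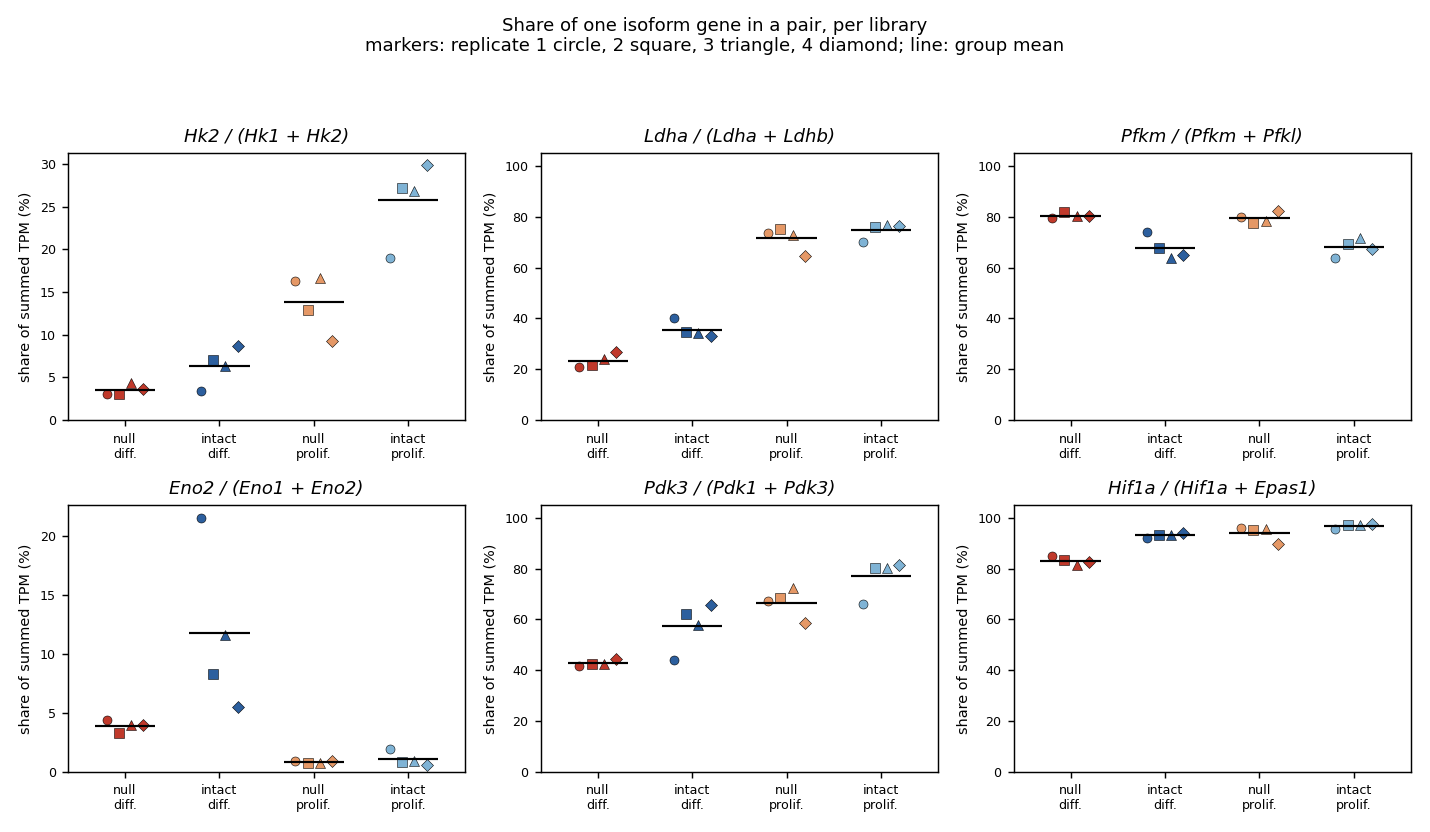
Share of the first gene in the summed TPM of an isoform pair, in percent, per library; groups run from null and intact differentiating to null and intact proliferating, symbols mark replicates, lines the group means, and vertical scales differ between panels. The Ldha share is 20.7% to 26.8% in null differentiating and 32.9% to 40.1% in intact differentiating libraries, and the Hk2 share is lower in null than in intact proliferating libraries.

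In the HIF list, of the 14 tested genes, 6 rose and 4 fell in null cells, and 7 rose and 3 fell in intact cells, with medians of 0.71 and 0.30 log2. Over all genes 34.6% rose and 34.4% fell in null cells, and 36.7% rose and 35.3% fell in intact cells. Epas1 rose by 1.63 ± 0.23 log2 in null and 1.45 ± 0.24 log2 in intact cells. Bnip3 rose to 27.6 ± 1.96 CPM in null differentiating cells, against 8.59 ± 1.53 CPM in null proliferating cells (log2 fold change 1.68 ± 0.18 (SE), edgeR adjusted p = 1.01e-06), and to 25.8 ± 1.32 CPM in intact differentiating cells, against 11.3 ± 3.79 CPM in the proliferating intact cells (log2 fold change 1.19 ± 0.18 (SE), edgeR adjusted p = 2.98e-05). Bnip3l rose by 1.21 ± 0.08 and 1.05 ± 0.08 log2, and its near-identical copy Bnip3l-ps drew 14509 counts of its own, against 50618 for Bnip3l. Vegfa fell in null cells (log2 fold change -1.69 ± 0.30 (SE), edgeR adjusted p = 0.000155) and in intact cells (log2 fold change -0.89 ± 0.30 (SE), edgeR adjusted p = 0.0143), the second with overlap. The intact Vegfa call was lost without intact proliferating replicate 1 (-0.58 log2, adjusted p 0.0689, in a range of 0.000296 to 0.134 over 27 alternatives). Egln1 fell slightly, with log2 fold changes of -0.38 ± 0.06 in null and -0.46 ± 0.06 in intact cells, and P4ha1 with -0.46 ± 0.13 in null and -0.44 ± 0.13 in intact cells. Without null proliferating replicate 4 the P4ha1 value in null cells was -0.28 and still called. Ndrg1 rose in intact cells (log2 fold change 3.42 ± 0.70 (SE), edgeR adjusted p = 0.000484), with overlap, and was not called in null cells (0.92 ± 1.15 log2). Without intact differentiating replicate 1 the intact rise was 2.02 log2 and still called. The difference between those Ndrg1 responses was not called either (adjusted p = 0.221).

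The response to differentiation differed between genotypes for 7 of the 38 tested genes. The background was 22.7% of all genes called in the interaction, 12.7% higher and 9.93% lower. The shares, 4 of 24 in the glycolysis list and 3 of 14 in the HIF list, lie near that background. Without the 3 libraries that stood apart, 3 glycolysis genes were higher and 5 lower in the interaction, and 2 HIF genes were higher and 3 lower, with 20.2% and 15.5% over all genes. Among the genes called in the interaction, Pfkfb4 had the largest negative value: it rose in intact cells by 1.86 ± 0.28 log2 and was not called in null cells (-0.54 ± 0.27 log2), and the interaction was -2.40 ± 0.39 log2 (edgeR adjusted p = 0.000698). Slc16a3 fell in intact cells (log2 fold change -3.90 ± 0.45) and was already near 0 in null proliferating cells, which gave an interaction of 3.94 ± 0.84 log2 (adjusted p = 0.00384). Pgam1 and Pkm fell more in null cells, with log2 fold changes of -1.18 ± 0.07 and -1.30 ± 0.09, than in intact cells, with -0.77 ± 0.07 and -0.83 ± 0.09. Their interactions were -0.41 and -0.46 log2 (edgeR adjusted p = 0.0061 and 0.016).

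Mxi1 rose in both genotypes, by 1.72 ± 0.12 log2 in null and 0.84 ± 0.11 log2 in intact cells, with an interaction of 0.88 ± 0.16 log2 (edgeR adjusted p = 0.0015). Kdm3a rose by 0.95 ± 0.13 log2 in null and 0.36 ± 0.13 log2 in intact cells, with an interaction of 0.59 ± 0.18 log2 (adjusted p = 0.0281, called in 20 of 26 alternatives with adjusted p from 0.00554 to 0.936). The intact rise of Kdm3a was called in 19 of 27 alternatives, with adjusted p from 2.38e-07 to 1, and in 13 of 18 settings that left libraries out. Ankrd37 rose in null cells by 1.44 ± 0.44 log2 and was not called in intact cells, and its interaction of 1.74 ± 0.59 log2 (adjusted p = 0.0428) was called in 7 of 25 alternatives, with adjusted p from 0.0228 to 0.19. For the last gene the levels were below 4 CPM in all libraries.

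**Figure D5:**
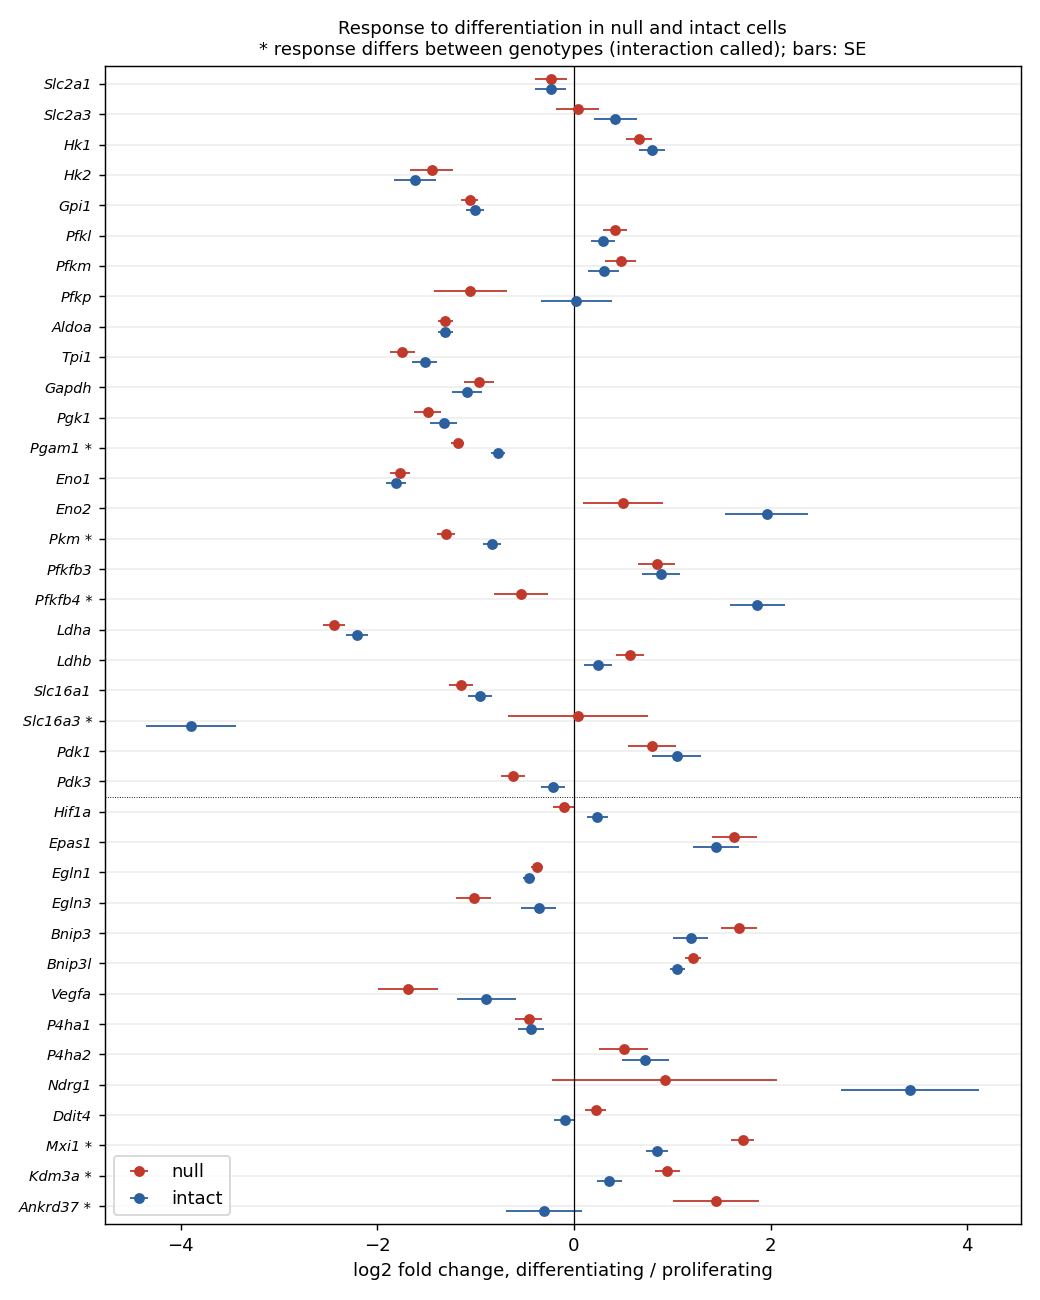
Log2 fold change of differentiating over proliferating cells for the 38 tested genes, in null cells (red, upper point) and intact cells (blue, lower point); bars are SE, a dotted line divides the glycolysis list from the HIF list, and asterisks mark genes whose response differed between genotypes. Most enzymes lie left of 0 in both genotypes, with Ldha at -2.44 and -2.21, and the null and intact points part most widely for Slc16a3, Ndrg1 and Pfkfb4.

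Genes around these lists were counted too, beside the same backgrounds of 19% higher and 19.7% lower in null proliferating cells, and 24.3% higher and 22% lower in null differentiating cells. The 22 genes of pyruvate dehydrogenase and the tricarboxylic acid cycle, which oxidise the pyruvate that glycolysis makes, were higher in null proliferating cells in 19 cases and lower in none, with a median of 0.40 log2. In null differentiating cells 16 were higher and none lower. All 22 fell with differentiation in each genotype, against 34.4% of all genes in null and 35.3% in intact cells. Ogdh, a subunit of 2-oxoglutarate dehydrogenase, was higher by 0.88 ± 0.07 log2 in proliferating and 0.58 ± 0.07 log2 in differentiating null cells. Idh3a, of the mitochondrial isocitrate dehydrogenase, was higher by 0.72 ± 0.08 log2 in proliferating cells and differed by 0.02 ± 0.08 log2, not called, in differentiating cells. Of 11 genes of the pentose phosphate pathway, 4 were higher and 1 lower in null proliferating cells, and 3 higher and 1 lower in null differentiating cells.

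Among 29 tested genes of further glucose handling and monocarboxylate transport, 13 were higher and 4 lower in null proliferating cells, and 12 higher and 5 lower in null differentiating cells. Pgm1, phosphoglucomutase, was higher by 1.04 ± 0.09 log2 in proliferating and 1.11 ± 0.09 log2 in differentiating null cells. Slc16a7, which encodes the high-affinity monocarboxylate carrier MCT2, was lower in null differentiating cells (log2 fold change -6.06 ± 0.67), with a mean of 0.0924 CPM in null and 6.70 CPM in intact cells. Slc2a13, the proton myo-inositol cotransporter, was lower in null cells, with log2 fold changes of -2.28 ± 0.25 in proliferating and -3.25 ± 0.25 in differentiating cells. Slc2a12, a glucose transporter, was higher by 2.73 ± 0.33 log2 in null differentiating cells.

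Among 49 further HIF targets, 14 were higher and 9 lower in null proliferating cells, and 17 higher and 5 lower in null differentiating cells. These are 28.6% and 18.4% of the list, against 19% and 19.7% of all genes, in proliferating cells, and 34.7% and 10.2%, against 24.3% and 22%, in differentiating cells. Adm, which encodes the vasodilator peptide adrenomedullin, was higher by 1.67 ± 0.27 log2 in proliferating and 5.52 ± 0.39 log2 in differentiating null cells, where its mean was 11.2 CPM in null and 0.243 CPM in intact cells. Hmox1, haem oxygenase, was higher by 1.82 ± 0.22 and 2.25 ± 0.22 log2, and Ero1a, an oxidase of the endoplasmic reticulum, by 1.09 ± 0.11 and 0.54 ± 0.11 log2. Ak4, a mitochondrial adenylate kinase, was higher by 1.30 ± 0.12 log2 in null differentiating cells. Pam, the peptide-amidating enzyme, was lower in null proliferating cells (log2 fold change -0.82 ± 0.10). Log2 fold changes over the 49 genes ran from -5.46 to 2.99 in proliferating and from -8.89 to 5.52 in differentiating cells.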

How the data were processed

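Polyadenylated RNA of 16 cultures was sequenced as paired-end TruSeq libraries on a NextSeq, per the labels' protocols. The authors deposited raw counts per gene with gene lengths, made with bcl2fastq and featureCounts on mm10 per the submitters' processing notes. For versions, aligner, multi-mapping rule and strand setting: not given in the sources used here. Entrez identifiers were matched to symbols for 25275 of 27179 genes. Counts were filtered with edgeR 4.0.16 (R 4.3.3, filterByExpr, minimum count 10), scaled by TMM and fitted by quasi-likelihood with 1 mean per group over all 16 libraries. The contrasts were null minus intact in each state, differentiating minus proliferating in each genotype, and their interaction, with Benjamini-Hochberg adjustment over 15177 genes and a threshold of 0.05. SE were derived from the F statistic. TPM used the deposited gene lengths. The procedure was tested on simulated data. Copies were found with blastn 2.17.0 against GENCODE release 21. The members and all lists were chosen with earlier results of these data known. Values in every library are given for genes called between genotypes with a fold of at least 1.5, genes called in the interaction, Hif1a and Epas1, and from other lists at most 4 called genes per genotype comparison with the lowest adjusted p are named. Alternatives were RLE scaling, library size scaling, DESeq2 1.42.0, other filters, 2-group fits, a test against a fold of 1.5, blocks and left-out libraries. Same-numbered libraries of a genotype were not shown to be paired. The labels do not exclude that replicates share litters. The fit treated all 16 cultures as independent, and its p-values set differences against the spread between these cultures. Cultures of the 2 states that came from 1 foetus would not be independent. Precision follows the depth given with the results.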

Additional observations from a re-analysis of the deposited data

Results flagged for a closer look

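In groups of 4 libraries, a library was singled out when its gap to the nearest other library was, relative to the range of the group, above the critical value of Dixon's test. This was so for 24 of 152 groups tested, or 15.8%, where chance gives about 1 in 20. Of these, 8 fell in intact proliferating replicate 1, 7 in null proliferating replicate 4, 4 in intact differentiating replicate 1 and 2 in intact differentiating replicate 4.

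Null proliferating replicate 4 was the highest of its group for Pfkm (197 CPM), Tpi1 (372 CPM), Pgk1 (159.8 CPM), Pkm (1965 CPM), Ldhb (254 CPM), Epas1 (31.98 CPM) and P4ha1 (93.4 CPM). Null proliferating replicate 1 was the highest for Vegfa (141 CPM).

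Intact proliferating replicate 1 was the highest of its group for Tpi1 (276 CPM), Pfkfb4 (5.18 CPM), Pdk1 (27.8 CPM), Bnip3l (86.5 CPM), Vegfa (138 CPM) and Kdm3a (149 CPM), and the lowest for Hk2 (30.04 CPM) and Pfkp (26.1 CPM). Intact differentiating replicate 1 was the highest for Hk1 (203 CPM), Pfkm (151 CPM), Egln1 (114 CPM) and Ndrg1 (124 CPM).

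Intact differentiating replicate 4 was the lowest for Gapdh (15.2 CPM) and the highest for Slc16a3 (0.48 CPM). Null differentiating replicate 3 was the highest for Egln3 (18.3 CPM), and null differentiating replicate 2 the lowest for P4ha1 (46.6 CPM). What sets these libraries apart was not tested.

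The response to differentiation differed between null and intact cells by the interaction term for 7 genes, beside 22.7% of all genes tested. Null minus intact responses were -0.41 log2 for Pgam1, -0.46 for Pkm, -2.40 for Pfkfb4, 3.94 for Slc16a3, 0.88 for Mxi1, 0.59 for Kdm3a and 1.74 for Ankrd37.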

How the results depend on the processing

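No log2 fold change called in the main analysis changed sign under any alternative run. Against a fold of 1.5, the counts of called genes were 1 higher and 1 lower for the glycolysis list and 0 higher and 3 lower for the HIF list in proliferating cells (null minus intact), and 1 higher and 3 lower, and 1 higher and 2 lower, in differentiating cells. For differentiation, 0 glycolysis genes rose and 2 HIF genes fell in null cells, and 3 glycolysis genes rose and 0 HIF genes fell in intact cells. Ldha, Eno1, Tpi1, Pgk1, Aldoa, Gpi1, Gapdh, Pgam1, Pkm, Hk2 and Slc16a1 were still called lower in both genotypes, as in all 27 alternatives. In the interaction, 1 glycolysis gene was lower and 0 HIF genes were higher. Over all genes, the test against a fold of 1.5 called 4.13% higher and 6.71% lower in null proliferating cells. In null differentiating cells it called 6.31% higher and 11.1% lower. With differentiation, 17.5% of all genes rose and 16.5% fell in null cells, and 20.7% rose and 17.1% fell in intact cells. In the interaction, 2.37% of all genes were higher and 2.68% lower. The main counts are in the report. The count of HIF genes lower in null differentiating cells was 4, and 2 with no filter on low counts. Over all genes 22% and 17.3% were lower. The count of HIF genes higher in the interaction was 3, and 1 with library size scaling. Over all genes 12.7% and 11.6% were higher. HIF genes lower in the interaction were 0 in the main analysis, and 1 with DESeq2 and with a minimum count of 50. Over all genes 9.93% were lower in the main analysis and 13.6% with either alternative.

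Leaving out libraries gave 1 to 3 HIF genes higher in null proliferating cells, 2 to 6 HIF genes lower in null differentiating cells, and in the interaction 1 to 3 glycolysis genes higher, 3 to 5 lower, 1 to 3 HIF genes higher and 0 to 3 lower. In these settings 15.5% to 24.2% of all genes were higher in null proliferating cells, and 19.7% to 25.6% lower in null differentiating cells. In the interaction 10.4% to 20.2% of all genes were higher and 7.79% to 15.5% lower. With the replicate number as a block, 1 HIF gene was higher in the interaction, and with each isolate as a block 1 was higher and 1 lower. Over all genes 11.8% were higher with the first block, and 10.9% higher and 8.41% lower with the second. Residuals of same-numbered libraries of the 2 states correlated between -0.0284 and 0.0331 in null cells and between -0.231 and 0.126 in intact cells, so the numbers were not shown to pair the cultures. The block left the glycolysis counts between genotypes at 11 higher and 3 lower in proliferating cells, and 10 higher and 6 lower in differentiating cells.

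Library size scaling moved the split of calls over all genes, as given in the report. Genes at a few counts per library, such as Slc16a3 in differentiating cells, are limited by depth.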
